A study of Homo sapiens with 24 samples.

Results

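The fraction ratio of a gene, its level in libraries labelled total RNA over its level in libraries labelled cytoplasmic RNA, was compared between A-431 and U-2 OS cells. A-431 is a human epidermoid carcinoma cell line with very high levels of the EGF receptor, and U-2 OS is a human osteosarcoma cell line. The A-431 arm held 4 libraries of total RNA (numbered 9 to 12) and 4 of cytoplasmic RNA (21 to 24), and the U-2 OS arm held 4 of total RNA (1 to 4) and 3 of cytoplasmic RNA (14 to 16). These are 15 of the 24 poly(A)-selected libraries of the series, which has a further cell line, U-251MG. No treatment or genetic change is given in the labels for any group, and whole-cell RNA was set against RNA from a detergent lysate from which nuclei had been removed. Of 51715 genes in the count files, 19449 had counts high enough to be tested. A gene was called when the difference between the log2 ratio of A-431 and that of U-2 OS passed an adjusted p of 0.05 by edgeR's quasi-likelihood method. Beside a log2 ratio or difference, ± gives the SE of that fit. A gene that merely has a higher level in one cell line has no such difference.

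Messenger RNA is made and processed in the nucleus and translated outside it, so that whole-cell RNA holds nuclear and cytoplasmic copies of each transcript. The fraction ratio of a transcript is therefore commonly read as a measure of how much of it lies in the nucleus. Some mRNAs are held in the nucleus for a long time, others are bound to the endoplasmic reticulum or to the cytoskeleton, and long non-coding RNAs such as NEAT1 and MALAT1 stay in nuclear bodies.

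The known location of NEAT1 and MALAT1 did not match the labelled fractions in these libraries. NEAT1, the scaffold RNA of nuclear paraspeckles (chromosome 11 of GRCh37, 65190245 to 65213011, plus strand), had 188, 179, 328 and 183 CPM in A-431 total RNA, against 639, 694, 782 and 702 CPM in A-431 cytoplasmic RNA. CPM is the count of a gene per 1e6 gene counts after scaling between libraries. The U-2 OS libraries had 378, 491, 568 and 495 CPM in total RNA, against 680, 838 and 605 CPM in cytoplasmic RNA. Each library labelled cytoplasmic was thus above each one labelled total RNA within its cell line. MALAT1, a nuclear speckle RNA, ran the same way, with 11.95 ± 4.9 CPM in A-431 total RNA, against 32.6 ± 6.2 CPM in A-431 cytoplasmic RNA (SD, n = 4 each). The U-2 OS level was 29.9 ± 4.2 CPM in total RNA, against 53.2 ± 4.8 CPM in cytoplasmic RNA (SD, n = 4 and 3). The mitochondrial mRNA MT-CO1, which lies outside the nucleus and so makes no such mismatch, was lower in the libraries labelled total RNA. Its log2 ratio was -1.45 ± 0.19 in A-431 and -0.80 ± 0.20 in U-2 OS (SE). The share of reads outside exons was 14.6 to 15.1% in A-431 total RNA and 15.96 to 17.3% in A-431 cytoplasmic RNA, and it was 17.2 to 17.8% in U-2 OS total RNA and 17.2 to 18.2% in U-2 OS cytoplasmic RNA. The study checked the fractions by electrophoresis before sequencing and describes a nuclear RNA peak in total RNA and none in the cytoplasmic samples it kept. Every direction given here follows the labels, and the reason for the levels of the nuclear RNAs was not tested.

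Gene counts summed to between 24130875 and 32345513 in A-431 total RNA and between 28858299 and 32394170 in A-431 cytoplasmic RNA. In U-2 OS they summed to between 21805430 and 27623859 in total RNA and between 25915013 and 27551776 in cytoplasmic RNA. Of 31 epithelial markers, 29 were higher in A-431 total RNA than in U-2 OS total RNA. The summed level of the list was 23459 to 28559 CPM over the A-431 libraries, against 1778 to 2064 CPM over the U-2 OS libraries. EGFR is in this list and alone had 13169 to 17506 CPM in the A-431 libraries. Of 22 tested markers of osteoblasts and mesenchyme, 19 were lower in A-431 total RNA, with sums of 71.7 to 86.8 CPM in A-431 and 5620 to 5933 CPM in U-2 OS. By the study's run tables, matched on read totals, all A-431 total libraries were run on one flow cell and all A-431 cytoplasmic libraries on another, so that flow cell and fraction cannot be told apart in A-431. In U-2 OS, total libraries 1 to 4 and cytoplasmic library 14 were on the first of these, and cytoplasmic libraries 15 and 16 on the second. Flow cell is thus spread unevenly over the 4 groups. U-2 OS total library 1 had higher levels of several very long transcripts than the other U-2 OS total libraries, and A-431 total library 11 had higher levels of NEAT1, MALAT1 and mitochondrial mRNAs than the other A-431 total libraries.

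The ratio was higher in A-431 for 512 genes and lower for 478 genes, which is 2.63% and 2.46% of those tested. IQGAP1, SPTBN1, MACF1, PLEC and DST, which code for large proteins of the cytoskeleton and the cell cortex, were among the leading genes with a higher ratio in A-431. With a mean log2 CPM of 3 or more in both cell lines and library-pair ratios that did not overlap between them, RPL36A, MATCAP1, SNHG3, HOXB3 and GATD1 had the largest differences among those with a lower one, although the direction of RPL36A turned in RPKM. Over all tested genes the median difference was -0.01 on the log2 scale, with quartiles of -0.21 and 0.15. The called genes had a median difference of 0.37 where the ratio was higher and -0.62 where it was lower, beside 2.67 for IQGAP1. Tested against a difference of 0.5 in place of 0, only 6 genes were higher and 5 were lower. DESeq2 called 874 genes higher and 538 lower. An offset for GC content gave 836 and 456, of which 462 and 287 were among the main calls. An offset for GC content and length gave 665 and 467, of which 323 and 267 were among them. These offsets could be applied to 926 of the called genes. Including library 13 gave 341 and 190, one model over all 6 groups 189 and 233, and limma on RPKM 175 and 55. The counts were 235 and 225 without U-2 OS cytoplasmic library 16, 316 and 343 without U-2 OS total library 2, and 314 and 319 without A-431 total library 12.

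For most called genes the A-431 ratio was further from equal levels in the fractions than the U-2 OS ratio. Within A-431, 4130 genes were higher in total RNA (21.2%) and 4515 were lower (23.2%), while within U-2 OS 2179 genes were higher (11.2%) and 2172 were lower (11.2%). The A-431 ratio was further from 0 than the U-2 OS ratio for 461 of the 512 genes with a higher ratio in A-431 and for 416 of the 478 with a lower one. Of the 512, 393 were higher in total RNA in A-431 and not called in U-2 OS, 61 were higher in total RNA in both cell lines, and 32 were not called in A-431 and lower in total RNA in U-2 OS. Of the 478, 333 were lower in total RNA in A-431 and not called in U-2 OS, and 83 were lower in both. The sign turned between the cell lines for 17 and 12 genes. As these within-line ratios are the parts of the difference itself, their counts are a description.

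**Figure D1:**
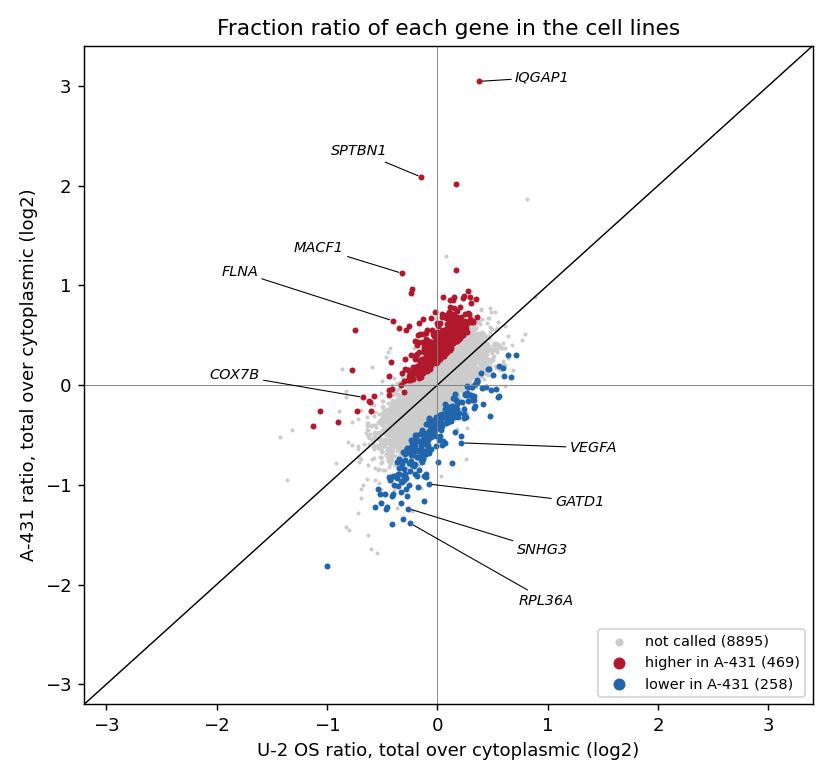
Each point is one of the 9622 genes at 3 or more on the log2 CPM scale in both cell lines, placed by its log2 ratio of total over cytoplasmic RNA in U-2 OS (x axis) and in A-431 (y axis), and 1 gene lies outside the axes. The 469 genes with a higher ratio in A-431 (red) lie above the diagonal of equal ratios, with IQGAP1 farthest from it, and the 258 with a lower ratio (blue) lie below it.

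Several of the largest called differences lay in the membrane skeleton and the large linker proteins of the cytoskeleton. Of 47 tested spectrins, plakins, filamins and other cortical genes, 11 had a higher ratio in A-431 (23.4%) and 0 a lower one, by edgeR at an adjusted p of 0.05. Over all genes 2.63% were higher and 2.46% were lower. The median difference of the list was 0.20, against -0.01 over all genes. Its median coding length was 6894 nt. Of all protein-coding genes between 6000 and 9000 nt 29.2% were higher, and of those over 9000 nt 20.1%, so that the share of the list was near that of long genes. IQGAP1, a scaffold that binds actin and calmodulin (chromosome 15, 90931474 to 91045471, plus strand), had 827, 771, 787 and 882 CPM in A-431 total RNA, against 97.9, 84.1, 104 and 110 CPM in A-431 cytoplasmic RNA. Levels in U-2 OS were 567, 501, 500 and 542 CPM in total RNA, against 397, 404 and 419 CPM in cytoplasmic RNA. The A-431 cytoplasmic libraries were thus the only group in which IQGAP1 was low. Its level in total RNA was 8.25 times that in cytoplasmic RNA in A-431 and 1.30 times in U-2 OS, a log2 difference of 2.67 ± 0.09 (SE, edgeR adjusted p = 3.3e-19).

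SPTBN1, the non-erythroid beta-II spectrin that crosslinks actin under the plasma membrane (chromosome 2, 54683454 to 54898583, plus strand), had 638, 645, 538 and 734 CPM in A-431 total RNA, against 141, 137, 176 and 148 CPM in A-431 cytoplasmic RNA. U-2 OS total RNA had 830, 659, 700 and 693 CPM, against 789, 798 and 799 CPM in cytoplasmic RNA. The total RNA libraries of the cell lines overlapped in SPTBN1 level, and only the cytoplasmic libraries of A-431 stood apart from the other groups. The difference was 2.23 ± 0.13 (SE, edgeR adjusted p = 1.9e-09). FLNA, the widely expressed filamin coded on the X chromosome, had opposite ratios in the cell lines. It had 2426, 2786, 1960 and 2654 CPM in A-431 total RNA, against 1579, 1483, 1606 and 1622 CPM in A-431 cytoplasmic RNA. The U-2 OS libraries had 2936, 2345, 2842 and 2479 CPM in total RNA, against 3570, 3672 and 3264 CPM in cytoplasmic RNA. The fractions of neither cell line overlapped in FLNA level, and the difference was 1.05 ± 0.12 (SE, edgeR adjusted p = 3.1e-05).

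**Figure D2:**
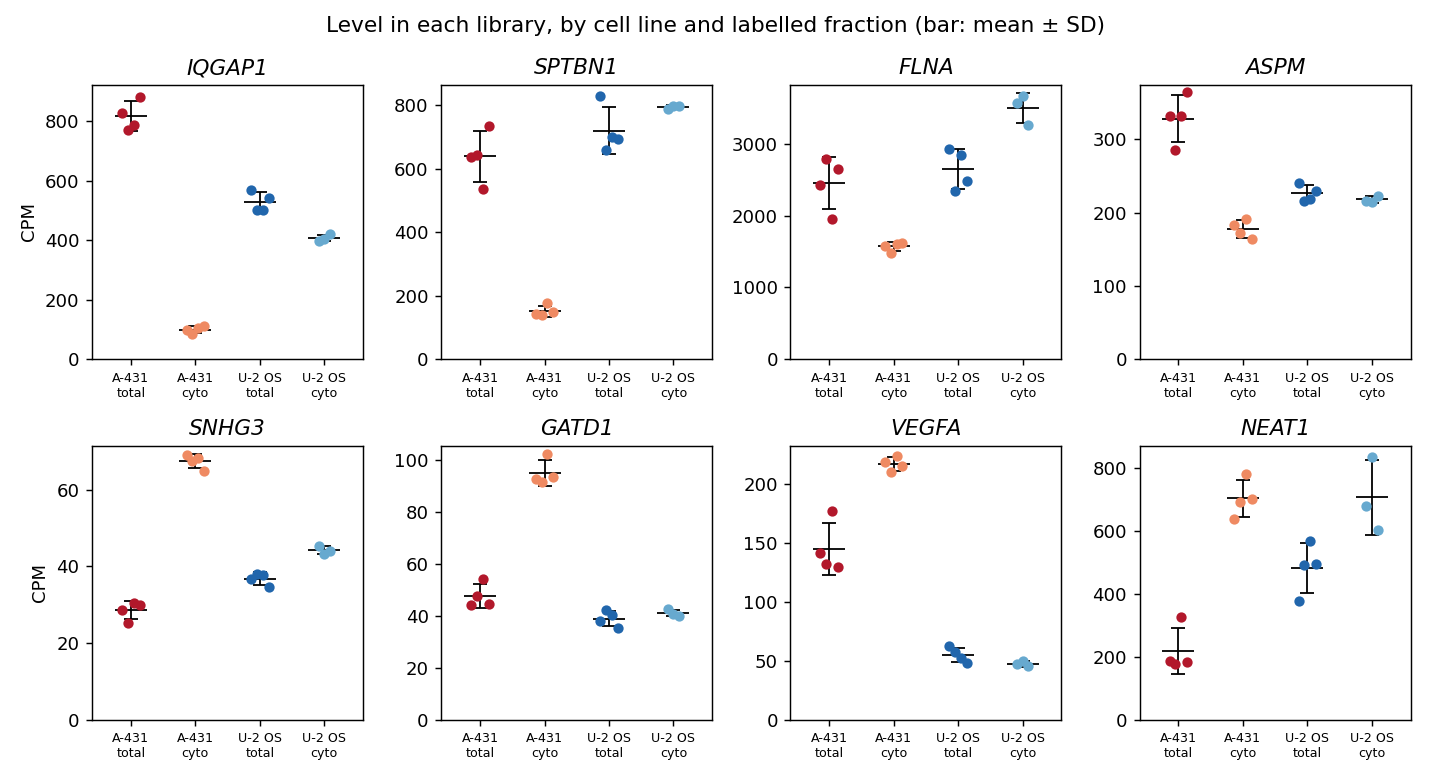
Each point is the level of a gene in one library in CPM (y axis, from 0), with the groups along the x axis and the mean ± SD as a black bar (n = 4, 4, 4 and 3). IQGAP1 and SPTBN1 were low only in A-431 cytoplasmic RNA, FLNA ran opposite ways in the cell lines, SNHG3 and GATD1 were high only in A-431 cytoplasmic RNA, and NEAT1 was higher in the cytoplasmic libraries of both cell lines.

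The plakins MACF1 and DST, which link actin filaments to microtubules and intermediate filaments, had log2 ratios of 1.12 ± 0.17 and 0.96 ± 0.17 in A-431. In U-2 OS their ratios were -0.32 ± 0.17 and -0.23 ± 0.18 (SE), and neither was called there. The differences were 1.44 ± 0.24 for MACF1 (edgeR adjusted p = 0.0060) and 1.19 ± 0.25 for DST (adjusted p = 0.018). The call of DST was lost at an adjusted p of 0.0504 without U-2 OS cytoplasmic library 16. PLEC, plectin, which ties intermediate filaments to hemidesmosomes, had a ratio of 0.55 ± 0.11 in A-431 and of -0.75 ± 0.12 in U-2 OS. SPTAN1, the alpha-II spectrin, had ratios of 0.92 ± 0.10 in A-431 and -0.24 ± 0.10 in U-2 OS, and its difference was 1.16 ± 0.14. AHNAK, a giant protein of the cell cortex, had ratios of 0.33 ± 0.18 and -0.44 ± 0.19 (SE) in A-431 and U-2 OS and did not pass the test (edgeR adjusted p = 0.13). U-2 OS total library 1 had 2839 CPM of AHNAK, against 1546 to 1770 CPM in the other U-2 OS total libraries, and without it the AHNAK difference was 1.01 with an adjusted p of 0.00045.

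Among matrix proteins, integrins and laminins, 17 of 64 tested members were higher in A-431 (26.6%, beside 2.63% of all genes). In the same list 1 was lower (1.56%, beside 2.46% of all genes), and the median difference was 0.25. FN1, fibronectin, was far scarcer in A-431 than in U-2 OS and still differed in ratio. It had 54.4, 50.2, 44.7 and 55.9 CPM in A-431 total RNA, against 32.3, 33.5, 36.0 and 33.9 CPM in A-431 cytoplasmic RNA. Levels in U-2 OS were 969, 757, 856 and 703 CPM in total RNA, against 989, 1052 and 905 CPM in cytoplasmic RNA. FN1 was separated by fraction in A-431 and overlapped between fractions in U-2 OS, and the difference was 0.85 ± 0.12 (SE, edgeR adjusted p = 0.00020). TNC, the matrix protein tenascin C, differed by 0.84 ± 0.14, and its ratio was 0.56 in A-431 and -0.29 in U-2 OS. CSPG4, a membrane-spanning proteoglycan, had ratios of 0.23 and -0.42, and its difference was 0.65 ± 0.12 (SE). THBS1, thrombospondin 1, and ITGB1, the beta-1 integrin subunit, had ratios above 0 in both cell lines but larger ones in A-431, with differences of 0.53 ± 0.09 and 0.37 ± 0.08. The member that was lower in A-431 was SPARC, a matrix glycoprotein of bone (difference -0.71 ± 0.20), named after its value was seen.

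Among receptors and transporters of the plasma membrane, 15 of 81 tested members had a higher ratio in A-431 (18.5%) and 0 a lower one. IGF2R, which binds insulin-like growth factor 2 and carries lysosomal enzymes, differed by 0.67 ± 0.12 (SE, edgeR adjusted p = 0.0017). NOTCH2, a receptor of cell-to-cell signalling, also differed by 0.67 ± 0.12 (adjusted p = 0.0032). EGFR, the EGF receptor, had 16320 ± 958 CPM in A-431 total RNA, against 13379 ± 221 CPM in A-431 cytoplasmic RNA (SD, n = 4 each). The U-2 OS levels were 37.9 ± 3.9 CPM in total RNA, against 40.8 ± 8.0 CPM in cytoplasmic RNA (SD, n = 4 and 3). The difference in EGFR ratio was 0.39 ± 0.12 (SE) and missed the threshold (edgeR adjusted p = 0.067), although the level differed by 8.75 on the log2 scale in total RNA. AXL, a receptor tyrosine kinase, had a difference of 0.10 ± 0.07 (adjusted p = 0.49). Over all genes 2.63% were higher and 2.46% were lower. In the list of EGF receptor ligands and signalling, 4 of 49 members were higher (8.16%) and 2 were lower (4.08%). Those higher included NF1, which restrains RAS, and the sheddases ADAM10 and ADAM17, with differences of 0.50, 0.32 and 0.28. The call of ADAM10 was lost without U-2 OS cytoplasmic library 16 (0.25), and the difference was 0.05 with an offset for GC content and length.

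Of 69 genes of mitosis and the kinetochore, 13 had a higher ratio in A-431 (18.8%, beside 2.63% of all genes) and 0 a lower one (beside 2.46%). ASPM, a spindle pole protein (chromosome 1, 197053251 to 197115824, minus strand), had 331, 285, 331 and 364 CPM in A-431 total RNA, against 183, 172, 191 and 164 CPM in A-431 cytoplasmic RNA. U-2 OS total RNA had 241, 216, 218 and 230 CPM, against 216, 215 and 223 CPM in cytoplasmic RNA. ASPM thus had nearly equal levels in the U-2 OS fractions and fractions without overlap in A-431. The difference was 0.83 ± 0.09 (SE, edgeR adjusted p = 6.9e-07). CEP350, a centrosomal protein, differed by 0.64 ± 0.11. MKI67, the Ki-67 protein of dividing cells, and TOP2A, topoisomerase II alpha, had differences of 0.40 ± 0.15 and 0.26 ± 0.08 (SE) and did not pass the test (edgeR adjusted p = 0.16 and 0.054). MKI67 passed it without U-2 OS total library 1 (adjusted p = 0.0046), and it also did without A-431 total library 11.

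Of 61 chaperones, translocon and signal peptidase genes of the endoplasmic reticulum, 9 had a higher ratio in A-431 (14.8%), 0 a lower one, and the median difference was 0.06. SEL1L, a subunit of the complex that removes misfolded proteins, differed by 0.49 ± 0.08, and UGGT1, which senses the folding of glycoproteins, by 0.45 ± 0.09 (SE). The abundant chaperones CANX and CALR had differences of 0.27 ± 0.09 and 0.00 ± 0.09 (SE), and neither was called. Other genes with a higher ratio in A-431 belonged to lists that were mixed. SON, a large protein of nuclear speckles that is needed for splicing, had 543, 515, 494 and 580 CPM in A-431 total RNA, against 333, 346, 375 and 292 CPM in A-431 cytoplasmic RNA. The U-2 OS libraries had 473, 414, 439 and 433 CPM in total RNA, against 475, 486 and 481 CPM in cytoplasmic RNA. The difference of SON was 0.79 ± 0.09 (SE, edgeR adjusted p = 2.1e-06). Of the 58 tested SR proteins, CLK kinases and hnRNPs, 1 had a higher ratio in A-431 (1.72%), which was SON. In that list 3 had a lower ratio (5.17%), among them SRSF5 (-0.41 ± 0.08). TAOK1, a kinase of the STE20 family, and CNOT1, the scaffold of the deadenylase complex, differed by 0.67 ± 0.10 and 0.42 ± 0.08. In nuclear pores and mRNA export, 5 of 60 members were higher in A-431 (8.33%, beside 2.63% of all genes). All 5 were nucleoporins (NUP210, NUP155, NUP160, NUP98 and NUP205, at 0.38, 0.36, 0.36, 0.28 and 0.24). The 2 lower members (3.33%, beside 2.46% of all genes) were the helicase DDX39B and ENY2.

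Among genes with a lower ratio in A-431 were several host genes of snoRNAs. Of 19 tested long non-coding RNAs and snoRNA hosts, 5 were lower in A-431 (26.3%), 0 were higher and the median difference was -0.29. Over all genes 2.46% were lower and 2.63% were higher. Of all 1261 tested long non-coding RNAs, 3.01% were lower and 0 were higher. SNHG3, whose introns hold snoRNAs (chromosome 1, 28832492 to 28837404, plus strand), had 28.6, 25.2, 30.5 and 29.9 CPM in A-431 total RNA, against 69.2, 67.5, 68.2 and 64.9 CPM in A-431 cytoplasmic RNA. Levels in U-2 OS were 36.6, 38.1, 37.8 and 34.6 CPM in total RNA, against 45.3, 43.1 and 44.1 CPM in cytoplasmic RNA. SNHG3 was lower in total RNA in both cell lines, by more in A-431, and the difference was -0.97 ± 0.09 (SE, edgeR adjusted p = 3e-08). The other 4 called members were also snoRNA hosts, SNHG5, SNHG7, SNHG6 and SNHG12, with differences of -0.63, -0.62, -0.53 and -0.51. GAS5, a further host, had a difference of -0.23 ± 0.10, and NEAT1 and MALAT1 had differences of -1.13 ± 0.30 and -0.59 ± 0.34 (SE), none of which passed the test (edgeR adjusted p = 0.21, 0.054 and 0.39). Without A-431 total library 11, in which NEAT1 was at 328 CPM, the differences of NEAT1 and MALAT1 were -1.39 and -0.93 with adjusted p of 0.0013 and 0.036.

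GATD1, a gene of the glutamine amidotransferase-like family (chromosome 11, 767220 to 777488, minus strand), had 44.05, 47.9, 54.4 and 44.4 CPM in A-431 total RNA, against 92.6, 91.8, 102 and 93.5 CPM in A-431 cytoplasmic RNA. U-2 OS total RNA had 37.96, 42.2, 40.2 and 35.4 CPM, against 42.6, 40.8 and 40.0 CPM in cytoplasmic RNA. Each A-431 cytoplasmic library was above every library of the other groups, and the difference was -0.91 ± 0.10 (SE, edgeR adjusted p = 6.9e-07). MATCAP1, a tubulin carboxypeptidase, had 6.93, 7.18, 8.26 and 5.35 CPM in A-431 total RNA, against 14.2, 15.8, 16.7 and 15.7 CPM in A-431 cytoplasmic RNA. The U-2 OS averages were 21.6 ± 1.3 CPM in total RNA, against 23.4 ± 3.9 CPM in cytoplasmic RNA (SD, n = 4 and 3), and its difference was -1.04 ± 0.15 (SE). HOXB3, a homeobox transcription factor, differed by -0.91 ± 0.14, and RAD9A, a DNA damage checkpoint protein, by -0.80 ± 0.14 (SE). ZGPAT, PPFIA4, MAPK8IP3 and ZNF789 had differences of -0.79, -0.78, -0.75 and -0.70. SLC25A37, the mitochondrial iron importer, had a difference of -0.72 ± 0.11. RPL36A, a ribosomal protein, had the widest difference of the genes named here with a lower ratio, -1.14 ± 0.17 (SE), but in the deposited RPKM values its difference was 0.48. It has a near-identical copy and a read-through gene, and its value is uncertain. The cause of the change in sign was not tested.

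VEGFA, the vascular growth factor (chromosome 6, 43737921 to 43754224, plus strand), had 142, 132, 177 and 130 CPM in A-431 total RNA, against 219, 210, 224 and 216 CPM in A-431 cytoplasmic RNA. The U-2 OS libraries had 62.4, 57.5, 52.5 and 48.6 CPM in total RNA, against 47.0, 50.3 and 45.3 CPM in cytoplasmic RNA. Its fractions did not overlap in A-431 and overlapped in U-2 OS, and the difference was -0.80 ± 0.12 (SE, edgeR adjusted p = 0.00032). VEGFA belonged to the list of early response and AU-rich mRNAs, which are short-lived. Of 53 tested members of the list, 5 were lower in A-431 (9.43%, beside 2.46% of all genes) and 0 were higher (beside 2.63%). The list had a median coding length of 1008 nt and a median GC of 53.3%. Of protein-coding genes with up to 1200 nt and 50 to 58% GC, 3.18% were lower and 0.405% were higher. LIF, a cytokine, differed by -0.64 ± 0.09, and GADD45A, IER3 and IER2 by -0.52, -0.44 and -0.42. CCND1, cyclin D1, had a difference of 0.04 ± 0.08 (SE) and was not called. PABPC1L, a poly(A)-binding protein known from oocytes, was lower in total RNA in both cell lines, with ratios of -1.81 ± 0.13 in A-431 and -1.002 ± 0.13 in U-2 OS (SE). DDX39B, which loads export factors on mRNA, had ratios of -1.003 ± 0.11 in A-431 and -0.25 ± 0.12 in U-2 OS (SE), a difference of -0.75 ± 0.17 (edgeR adjusted p = 0.017). The call of DDX39B was lost without U-2 OS cytoplasmic library 16 (adjusted p = 0.071), and in RPKM the difference was -0.13 (limma adjusted p = 0.44).

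Some genes were called in both cell lines with opposite signs. At a mean level of 3 or more on the log2 CPM scale in both, 15 were higher in total RNA in A-431 and lower in U-2 OS, among them PLEC, FLNA, FN1, TNC and CSPG4. In the reverse direction there were 7, among them MT2A, a metallothionein, TRMT112, a partner of methyltransferases, CIRBP, a cold-inducible RNA-binding protein, and H3-5, a histone retrogene. CIRBP had 79.4, 80.8, 89.5 and 78.1 CPM in A-431 total RNA, against 99.7, 95.8, 97.4 and 94.3 CPM in A-431 cytoplasmic RNA. Levels in U-2 OS were 55.1, 62.3, 58.8 and 59.8 CPM in total RNA, against 52.8, 47.4 and 49.6 CPM in cytoplasmic RNA. The fractions did not overlap in either cell line, and the difference was -0.48 ± 0.08 (SE, edgeR adjusted p = 0.00051), yet in the deposited RPKM values it was 0.01. MT2A, TRMT112 and H3-5 had differences of -0.54 ± 0.10, -0.49 ± 0.09 and -0.46 ± 0.09. U2AF1, which recognises the 3′ splice site, and USB1, which trims U6 RNA, had smaller ones of -0.37 ± 0.09 and -0.36 ± 0.08 (SE).

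Over all tested genes 2.63% were higher and 2.46% were lower. Cytosolic ribosomal proteins had 2 of 75 members higher (2.67%) and 5 lower (6.67%), and RPS6, among the most abundant, had a difference of -0.03 ± 0.07 (SE). In nuclear-encoded oxidative phosphorylation 3 of 75 were higher (4.0%) and 4 were lower (5.33%). COX7B and COX5B, subunits of cytochrome c oxidase with short coding sequences, had a higher ratio in A-431, with differences of 0.55 ± 0.10 and 0.46 ± 0.12. Their ratios were -0.12 and -0.11 in A-431, where neither was called, against -0.67 and -0.58 in U-2 OS, where both were lower in total RNA. Of 13 mitochondrially encoded mRNAs, 0 passed the test in either direction, and the list had a median difference of -0.11. Replication-dependent histones had 0 called of 14. One gene, PSME4, was called among 36 proteasome subunits, and MT2A was the only one among 15 metallothioneins and stress mRNAs. Zinc finger genes named ZNF had 7 higher (1.68%) and 11 lower (2.64%) of 417. The miRNA and silencing list had 3 higher (4.84%) and 2 lower (3.23%) of 62, and the kinase list had 4 higher (8.33%) and 2 lower (4.17%) of 48, among them CSNK1E (-0.43 ± 0.07).

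**Figure D3:**
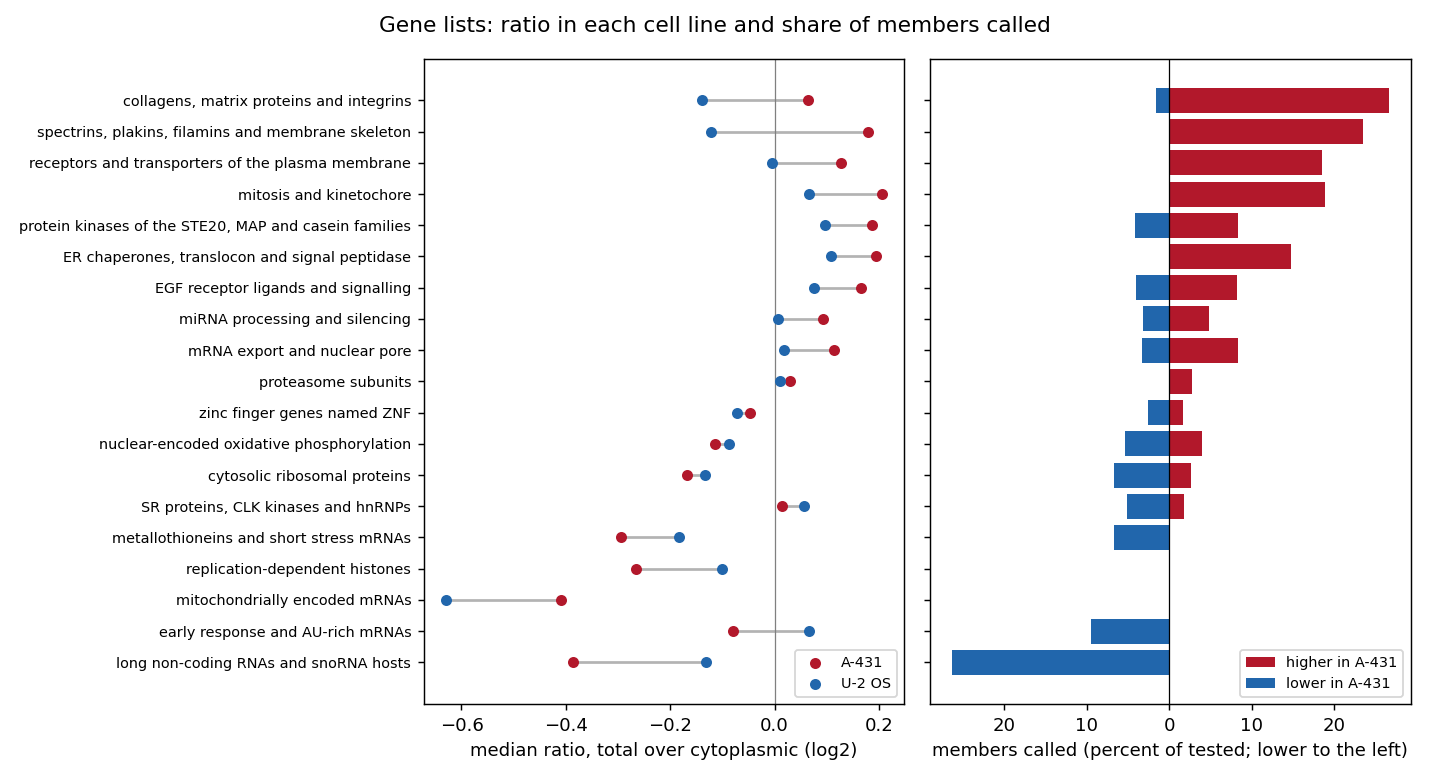
The left panel gives the median log2 ratio of total over cytoplasmic RNA of each gene list in A-431 (red) and U-2 OS (blue), and the right panel the percent of tested members with a higher ratio in A-431 (red, to the right) or a lower one (blue, to the left). The matrix list has the largest share of members that were higher (26.6%), and the list of long non-coding RNAs and snoRNA hosts the largest share that were lower (26.3%).

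The difference of the ratio moved with the length of the coding sequence. Over 14077 protein-coding genes with a complete coding transcript, the median difference was -0.05 for coding sequences of up to 600 nt and 0.37 for those over 9000 nt. Among the shortest, 10 of 1574 genes were higher in A-431 (0.635%) and 45 were lower (2.86%). Between 6000 and 9000 nt, 81 of 277 genes were higher (29.2%) and 2 were lower, and over 9000 nt 27 of 134 were higher (20.1%) and 2 were lower. The median ratio of those over 9000 nt was 0.15 in A-431 and -0.17 in U-2 OS, so that the longest coding sequences leaned to total RNA in A-431 and to cytoplasmic RNA in U-2 OS. Spearman's rho across the 14077 genes was 0.22 for coding length, 0.27 for transcript length and 0.18 for 3′ UTR length, as a description, since genes share the libraries and are not independent replicates. The 28 members of the membrane skeleton list with coding sequences over 6000 nt had a median difference of 0.35, beside 0.27 for the 383 other genes of that length.

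GC content ran the other way. The median difference was 0.09 for transcripts with 38 to 42% GC and -0.14 for those over 62%, and rho was -0.32. With 38 to 42% GC, 149 of 2255 genes were higher in A-431 and 14 were lower, whereas with 58 to 62% GC 9 of 1737 were higher and 100 were lower. Genes with a higher ratio in A-431 had a median GC of 43.1%, those with a lower ratio 57.5% and all tested genes 48.5%. Within coding sequences over 6000 nt the median difference was 0.35 up to 42% GC and 0.10 over 58% GC, and within those of up to 1200 nt it was 0.03 and -0.16. The difference thus went with GC content within both of these broad classes of length. By level in the higher cell line, 24 of 3564 genes were higher in A-431 and 123 lower at a log2 CPM of 3 to 5, 214 of 1935 and 21 at 7 to 9, and 24 of 246 and 1 above 9.

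The 60 bases at the middle of the coding sequence are shown for DST, among the GC-poorest 2 of the 12 genes with the largest higher ratio in A-431, and for the GC-richest 2 of the 12 with the largest lower ratio, since GC content separated the directions, with G and C in capitals and A and T in lower case (GENCODE v44lift37 transcripts on GRCh37, coding bases 11698 to 11757 of DST, 1987 to 2046 of MAPK8IP3 and 769 to 828 of ZGPAT).
DST: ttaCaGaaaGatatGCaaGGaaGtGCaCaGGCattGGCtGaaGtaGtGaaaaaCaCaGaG
MAPK8IP3: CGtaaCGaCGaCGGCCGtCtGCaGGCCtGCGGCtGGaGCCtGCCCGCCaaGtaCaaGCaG
ZGPAT: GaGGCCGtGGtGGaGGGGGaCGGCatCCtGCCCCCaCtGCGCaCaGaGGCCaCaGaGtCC
The windows hold 41.7%, 68.3% and 71.7% GC in that order, and the whole transcripts 41.6%, 64.6% and 64.4%. DST is on chromosome 6 (56322785 to 56819628, minus strand), MAPK8IP3, a scaffold of JNK kinases, on chromosome 16 (1756167 to 1820352, plus strand) and ZGPAT, a zinc finger repressor, on chromosome 20 (62338817 to 62367494, plus strand).

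**Figure D4:**
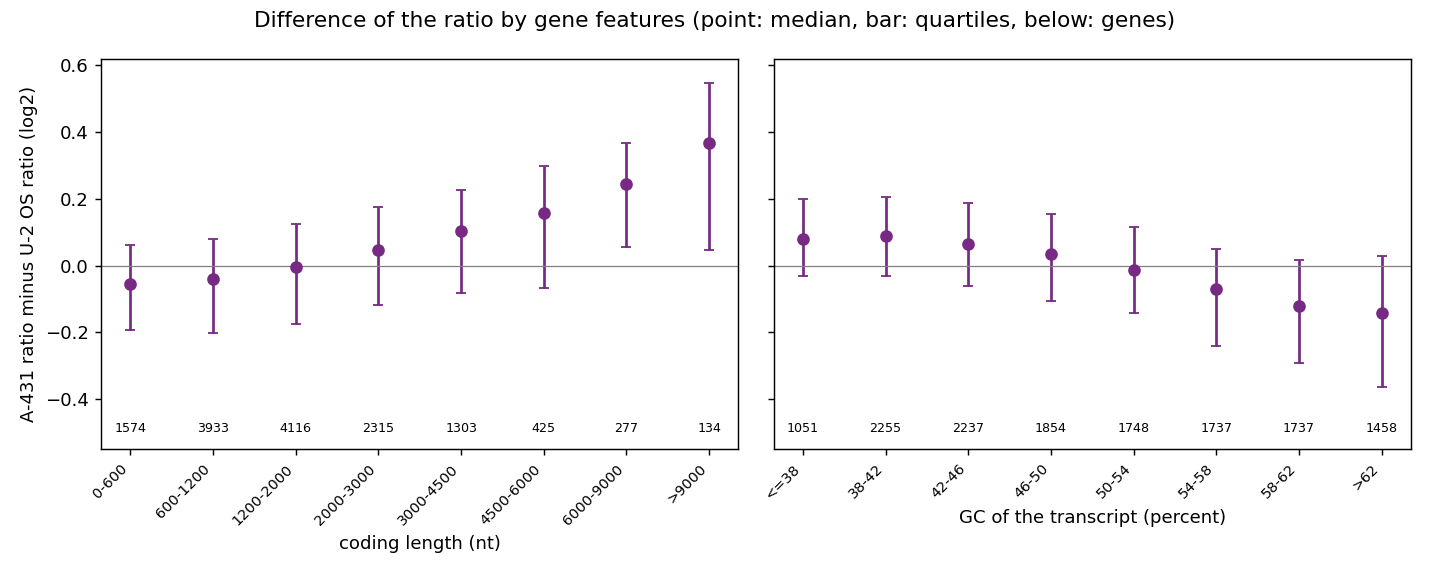
Points are the median of the A-431 ratio minus the U-2 OS ratio (log2, y axis) in bins of coding length in nt (left) and of GC percent of the transcript (right), bars run between the quartiles, and the number of genes stands below each bin. The median lies between -0.05 and 0.37 over the length bins, highest in the longest, and between -0.14 and 0.09 over the GC bins, lowest in the GC-richest.

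By gene type, 466 of 14145 protein-coding genes were higher in A-431 (3.29%) and 334 were lower (2.36%). Of 1261 long non-coding RNAs, 0 were higher (beside 2.63% of all genes) and 38 were lower (3.01%, beside 2.46% of all genes), with a median difference of -0.16. The gene types were not matched for level. Of 1698 protein-coding genes at a log2 CPM of 1 to 3 in the higher cell line, 9 were higher and 46 were lower. Of 2322 processed pseudogenes, which share reads with their parent genes, 37 were higher and 26 were lower.

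The 8 libraries of U-251MG, a glioblastoma line, took no part in the comparison. Of the 512 genes with a higher ratio in A-431, 502 were measured in U-251MG and 441 of these had a ratio above 0 there (87.8%), beside 50.01% of all genes, with a median of 0.30. Of the 478 with a lower ratio, 440 were measured and 46 had a ratio above 0 (10.5%), with a median of -0.58. Most of the 512 were also called higher in total RNA within A-431, and most of the 478 lower. All genes are therefore not a like set for these shares, and genes with such a ratio in A-431 but no call were not set beside them. The U-251MG ratio was nearer to that of A-431 than to that of U-2 OS for 75.7% of the 512 and 81.1% of the 478 that were measured, beside 63.5% of all genes. Single genes differed from this pattern. IQGAP1 had a ratio of 1.91 in U-251MG, nearer to A-431, while PLEC had -0.71 and FLNA -0.38, nearer to U-2 OS. SPTBN1 had 0.43, which lies between its ratios of 2.08 in A-431 and -0.14 in U-2 OS, and SNHG3 had -0.78, about midway between -1.24 in A-431 and -0.26 in U-2 OS. The ratio went with GC content within U-251MG, whose median was 0.43 in transcripts of up to 38% GC and -0.60 in those over 62%, while over the bins of coding length its median lay between -0.05 and 0.08.

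The level differences between the cell lines were also read in each fraction, and they hold the expression of the lines as well as the ratio. For IQGAP1 the level in A-431 minus that in U-2 OS was 0.63 in total RNA and -2.04 in cytoplasmic RNA on the log2 scale, and for SPTBN1 it was -0.17 and -2.40. For SNHG3 it was -0.36 and 0.61, and for GATD1 0.30 and 1.21. Over the 512 genes with a higher ratio the median level difference was 0.13 in total RNA and -0.27 in cytoplasmic RNA, and over the 478 with a lower ratio it was -0.58 and 0.13, beside -0.09 and -0.07 over all genes. The difference between the lines was the smaller one in total RNA for 52.5% of the 512 and 39.7% of the 478, beside 48.2% of all genes. SPTAN1 and FLNA had values of -0.05 and -0.11 in total RNA, beside -1.21 and -1.16 in cytoplasmic RNA. For coding sequences over 9000 nt the median level difference was -0.68 in total RNA and -1.12 in cytoplasmic RNA. A smaller amount of a transcript per cell and a smaller share of cells with it cannot be told apart in these bulk libraries.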

How the data were processed

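Poly(A)-selected RNA of A-431 and U-2 OS cells was sequenced as total and cytoplasmic RNA. Reads were mapped by the authors with TopHat 1.1.4 (hg19, the UCSC name of GRCh37), handled with SAMtools 0.1.8, and counted per Ensembl gene with HTSeq 0.4.6 where they lay wholly within its exons, on either strand. These deposited values are whole counts per gene. The deposited RPKM values, which the authors computed per kilobase of exon and 1e6 reads, were used only as an alternative. The 6 entries of each file that name no gene were left out (reads outside exons are given in the report). The labels name Trizol and paired-end libraries, while the study's methods describe column extraction and single reads. U-2 OS cytoplasmic library 13, which read totals did not tie to a culture of the study's run tables, was left out and tried as an alternative. The study discarded a U-2 OS cytoplasmic sample that showed a peak of nuclear RNA, and the sources used here do not say whether it is library 13.

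Counts were scaled by TMM, filtered with filterByExpr and tested with the quasi-likelihood F-test of edgeR 4.0.16 (R 4.3.3), with Benjamini-Hochberg adjustment over 19449 genes. One model over the 15 libraries gave the ratio within each cell line and the interaction of cell line and fraction, and SE is the estimate over the root of F. U-251MG was fitted alone. The study grew separate cultures, but no label says which culture a library came from, so the p-values cover the spread among these libraries, which may be technical in part. Counting without strand cannot separate overlapping genes.

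Checked on simulated counts of 19449 genes with 200 changed genes, the test called 78 of 100 genes with a difference of 0.5 and 98 of 100 with a difference of 1, each in the right direction, and 10 unchanged genes. The changed genes all had a mean log2 CPM of at least 3. Counts were drawn independently, with no other difference between fractions and no shift shared by many genes of a library. The check therefore does not cover scarcer genes or such shifts.

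Genes were named by rule: of the called genes with a mean log2 CPM (prior count of 2) of at least 3 in each cell line whose 16 library-pair ratios in A-431 lay apart from the 12 of U-2 OS, the 12 largest in each direction; up to 6 per direction with opposite signs in the cell lines; up to 4 per list; and MALAT1, NEAT1, EGFR, SPTBN1 and MACF1. Members of a list that the text gives beyond these were named after their values were seen. The comparison, the lists and the rule were chosen with earlier results of these data known. Lengths and GC content are from GENCODE v44lift37 on GRCh37, which held 18263 of the tested genes. DESeq2 1.42.0, limma 3.58.1 on log2(RPKM + 0.1) and the settings of the closing section were the alternatives. Some genes that the rule names, and 1 sequence, are not reported here.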

Additional observations from a re-analysis of the deposited data

Results flagged for a closer look

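The difference between the cell lines in the fraction ratio was itself tested, and it passed the threshold for 512 genes with a higher ratio in A-431 and 478 with a lower one. IQGAP1 (2.67) and SNHG3 (-0.97) were the genes with the smallest adjusted p in each direction among those named.

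Within groups of 4 libraries, 51 sets of values were looked at for a library far from the other 3, and 4 were found, where chance alone gives about 1 in 20. NEAT1 was at 328 CPM in A-431 total library 11, above the other A-431 total libraries. GATD1 was at 102 CPM and HOXB3 at 15.5 CPM in A-431 cytoplasmic library 23, and the sum of gene counts reached 32345513 in A-431 total library 11.

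U-2 OS cytoplasmic library 13, which the comparison did not use, had 21.9% of its reads outside exons, against 17.2 to 18.2% in the other U-2 OS cytoplasmic libraries.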

How the results depend on the processing

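The counts of genes with a higher and a lower ratio in A-431 (512 and 478) were 874 and 538 with DESeq2, 207 and 180 at an adjusted p of 0.01, 56 and 41 at 0.001, 6 and 5 against a difference of 0.5, 189 and 233 in one model over all 6 groups, and 341 and 190 with library 13 included. They were 836 and 456 with an offset for GC content (462 and 287 shared with the main calls), and 175 and 55 by limma on RPKM. With an offset for GC content and length they were 665 and 467 (323 and 267 shared). With only the cytoplasmic libraries of the second flow cell, which leaves out U-2 OS library 14, they were 481 and 343. With each library left out in turn they ran from 235 to 737 and from 225 to 643. The lowest came without U-2 OS cytoplasmic library 16 (235 and 225). U-2 OS total library 2 and A-431 total library 12 also moved the higher count by over 1.5 times when left out (316 and 314). With cultures as a replicate block, taken from read totals, there were 879 and 846, but same-numbered libraries correlated below 0.1 in 3 of 4 A-431 pairs (0.058 to 0.50; U-2 OS 0.18 to 0.44), so that the numbers were not treated as pairs.

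All 990 called genes kept their direction under RLE scaling, DESeq2, and one model over all groups, and 945 did by limma on RPKM. Of the 75 genes followed under 30 settings, 8 were called under each, among them IQGAP1, SPTBN1, PLEC, FLNA, SPTAN1, GATD1 and SNHG3. RPL36A and CIRBP turned sign by limma on RPKM, at 0.48 and 0.011, and the cause was not tested. With library 13 included 11 of them lost the call, among them LIF (-0.46), MAPK8IP3 (-0.50), PPFIA4 (-0.54), ZGPAT (-0.54), ZNF789 (-0.47), PABPC1L (-0.60) and DDX39B (-0.58). Calls were also lost often for PSME4 (called under 16 settings), COX5B (19), PABPC1L (21), ADAM10 (22) and DDX39B (22). NEAT1, not called at an adjusted p of 0.054, was called by DESeq2 (-1.12, adjusted p = 0.0091) and under 7 further settings. The median difference of every list stayed within the spread between libraries under each setting run for it. Precision is limited by 3 or 4 libraries per group.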
